A study of Mus musculus with 12 samples.

Results

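Immediate early genes are switched on within minutes of a stimulus without new protein synthesis, and 10 of them are described here in mouse peritoneal macrophages: Fos, Fosb, Jun, Junb, Egr1, Egr2, Atf3, Ier3, Dusp1 and Gadd45b. They were taken by name, and all 10 were measured, each by 1 probe set that carries no other gene's symbol, among 19938 genes on the arrays. Affymetrix Mouse Gene 1.0 ST arrays were used to measure transcripts in macrophages that had been drawn into the peritoneum by thioglycollate, an irritant, and collected by lavage from C57BL/6 mice. The donors had been put on their diet at 6 weeks of age and kept on it for 12 weeks. The 12 arrays form 6 groups of 2, which are high-fat-diet macrophages given high-fat red blood cells (RBC), given chow RBC or given none, and chow-diet macrophages given high-fat RBC, given chow RBC or given none. The RBC came from mice of the same 2 diets and were offered in culture for phagocytosis. The sources used here do not state how long the cultures were kept before RNA was taken, which matters for transcripts as short-lived as these, or whether free RBC were washed off. Thioglycollate itself recruits and activates macrophages, and every group shares it, so no group shows resident, unstimulated cells. The labels number the animals 1 and 2 in each group, and precision is limited by having 2 arrays a group. Levels below are log2 signals as deposited, differences are log2 differences ± SE from one limma fit to all arrays, and a gene passed where its limma p, adjusted by Benjamini-Hochberg across the 19938 genes, was below 0.05.

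The products of these genes act in the first wave of a cell's answer to growth factors, microbial products, stress and adhesion. MAP kinases phosphorylate ternary complex factors, and kinases such as PKA or, downstream of MAP kinases, MSK and RSK phosphorylate CREB; these factors are already present in the cell, so transcription can start at once. FOS and JUN family proteins then pair through leucine zippers to form the AP-1 transcription factor, and EGR proteins bind GC-rich sites through zinc fingers. Other early genes end the response: Dusp1 encodes a phosphatase that switches MAP kinases off, and many early transcripts are unstable. In macrophages AP-1 and EGR factors help to set cytokine and differentiation genes.

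The promoter table of RefSeq (build GRCm38.p6) held 9 of the 10 genes, all but Egr1. The 150 bases before the annotated start are shown for the 4 genes below. Of these, 3, Gadd45b, Dusp1 and Junb, responded to RBC differently in the 2 kinds of macrophage. Fos was added as a gene that rose in both over the pooled RBC. Fosb and Egr1 also responded differently but are not shown. Egr1 has no entry, and the listed start of Fosb is not the outer end of its gene. The windows lie at chr10:80929941-80930090 (plus strand) for Gadd45b, chr17:26508473-26508622 (minus strand) for Dusp1, chr8:84978749-84978898 (minus strand) for Junb and chr12:85473740-85473889 (plus strand) for Fos. Capitals mark TATAAA, a form of the TATA box, and TGACG, the core of the cyclic AMP response element to which CREB and ATF proteins bind, on either strand.
Gadd45b: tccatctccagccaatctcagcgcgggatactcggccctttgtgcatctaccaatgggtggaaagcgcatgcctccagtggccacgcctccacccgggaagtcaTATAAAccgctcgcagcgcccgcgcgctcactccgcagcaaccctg
Dusp1: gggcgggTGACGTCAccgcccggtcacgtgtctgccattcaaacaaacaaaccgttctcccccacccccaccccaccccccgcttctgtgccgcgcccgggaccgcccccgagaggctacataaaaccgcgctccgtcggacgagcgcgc
Junb: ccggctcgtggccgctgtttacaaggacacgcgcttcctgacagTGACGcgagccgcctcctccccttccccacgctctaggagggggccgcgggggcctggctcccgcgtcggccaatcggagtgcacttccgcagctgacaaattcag
Fos: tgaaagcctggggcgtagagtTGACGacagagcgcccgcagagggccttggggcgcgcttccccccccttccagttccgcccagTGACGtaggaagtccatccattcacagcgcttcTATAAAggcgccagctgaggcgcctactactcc
Dusp1 holds the full palindrome TGACGTCA at 143 to 136 bases before its start, a sequence that 1.769% of the 27025 genes of the table have within 250 bases before a listed start. Fos holds TGACG at 129 to 125 and at 66 to 62 bases and TATAAA at 33 to 28 bases before its start, Junb holds TGACG at 106 to 102 bases, and Gadd45b holds TATAAA at 46 to 41 bases and no TGACG within 250 bases. Both strands were searched, and the palindrome contains TGACG on each strand. A gene was counted where any of its listed starts had a match, and Egr2 has 5 listed starts while the other 8 genes have 1 each. TGACG was found in 6 of the 9 members (Fos, Fosb, Junb, Egr2, Atf3 and Dusp1) against 19.785% of all genes, and was chosen after these promoters had been read. TATAAA was found in Fos and Gadd45b (14.327% of all genes), the CArG box, to which serum response factor binds, in Egr2 (1.624%), the NF-kB site in Fos, Fosb, Egr2 and Ier3 (8.233%), and the AP-1 site TGANTCA in no member (7.819%). These are matches of letters in a short window and do not show binding.

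High-fat macrophages without RBC held less of most of these transcripts than chow macrophages without RBC. In all, 6 genes were lower, at -1.89 ± 0.22 for Gadd45b, -1.40 ± 0.14 for Dusp1, -0.78 ± 0.11 for Junb, -0.70 ± 0.13 for Ier3, -0.62 ± 0.09 for Fos and -0.61 ± 0.12 for Fosb. Those 6 of 10 stand beside 5.82% of all genes that were lower at the same threshold, 8.12% that were higher and 13.9% in either direction, and the median difference of the 10 was -0.616 against -0.011 for all genes. Egr1 was at -0.33 ± 0.11 (adjusted p = 0.064), Egr2 at -0.18 ± 0.13, Atf3 at -0.15 ± 0.09 and Jun at 0.00 ± 0.09, none of which passed; Egr1 did pass after quantile normalization (0.0242) and with the dimmest genes removed (0.0426). The same 6 genes were called whichever of the 12 arrays was left out. Since these are bulk cultures, fewer cells of a type and less RNA per cell cannot be told apart, and markers of macrophages and of other cells, given at the end, differed between the same groups.

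With both kinds of RBC pooled, 3 of the 10 genes were higher in high-fat macrophages than without RBC. They stand beside 0.878% of all genes that were higher, 0.201% lower and 1.08% in either direction. Egr1 was higher by 0.66 ± 0.10, Ier3 by 0.57 ± 0.11 and Fos by 0.47 ± 0.08 (adjusted p = 0.00258, 0.0209 and 0.00693). Taken singly, Egr1 and Fos passed with either kind, and Ier3 passed with high-fat RBC (0.62, adjusted p = 0.042) and not with chow RBC (0.52, adjusted p = 0.114). The median of the 10 differences was 0.363, against -0.003 for all genes. Among the high-fat arrays, Ier3 depended on replicate 1 of each RBC group and on the second unexposed array: without the one with chow RBC, the one with high-fat RBC or the unexposed one, it did not pass (adjusted p = 0.0857, 0.062 and 0.0945). Egr1 did not pass without the first unexposed array (adjusted p = 0.0579). Ier3 also missed the threshold after quantile normalization (0.0808) and with array weights (0.0845). Fitted to the 6 high-fat macrophage arrays alone, Fos and Ier3 did not pass (adjusted p = 0.0742 and 0.158). In these bulk cultures some neutrophil and platelet markers were also higher with RBC, in both macrophage diets, as given at the end. The part that such cells have in these responses and in those of chow macrophages was not tested.

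In chow macrophages, with both kinds of RBC pooled, 4 of the genes were lower than without RBC and 1 was higher. Gadd45b fell by 1.09 ± 0.19, Fosb by 0.54 ± 0.11, Egr2 by 0.37 ± 0.12 and Junb by 0.30 ± 0.09, and Fos rose by 0.27 ± 0.08 (adjusted p = 0.00155, 0.00439, 0.0495, 0.047 and 0.0334). Of all genes 4.51% were lower and 8.22% higher in that comparison, and 12.7% passed in either direction, so the 1 gene higher is near the background. The falls of Gadd45b and Fosb were of similar size with either RBC: with high-fat and chow RBC Gadd45b was at -1.07 and -1.10 and Fosb at -0.53 and -0.55, each against the same 2 unexposed arrays and each passing, beside 8.34% of all genes with high-fat RBC and 9.18% with chow RBC. Taken singly, Junb and Egr2 passed with neither kind (adjusted p = 0.0619 and 0.124 with high-fat RBC, 0.161 and 0.0899 with chow RBC). The calls of Fos, Junb and Egr2 were not stable. Fos did not pass without any 1 of the 6 chow macrophage arrays (adjusted p up to 0.192) or after quantile normalization (0.0705). Egr2 did not pass without any 1 of those 6 arrays or either high-fat macrophage array with chow RBC (up to 0.302). Junb did not pass without any 1 of those 6 arrays or of the 4 high-fat macrophage arrays with RBC (up to 0.229). Without replicate 2 of the unexposed chow macrophages Fosb did not pass either (0.0513), and Gadd45b was the 1 member still called.

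Whether the diet of the macrophage donor changed the response to RBC was tested as a difference of differences, in which the chow response is taken from the high-fat response. The response was more positive in high-fat macrophages for 5 of the 10 genes, at 1.62 ± 0.26 for Gadd45b, 0.78 ± 0.17 for Dusp1, 0.73 ± 0.14 for Egr1, 0.61 ± 0.15 for Fosb and 0.59 ± 0.13 for Junb, beside 2.57% of all genes above 0, 3.10% below and 5.67% in either direction. Ier3 at 0.43 ± 0.16, Fos at 0.20 ± 0.11, Egr2 at 0.17 ± 0.16, Atf3 at 0.16 ± 0.11 and Jun at -0.09 ± 0.11 did not pass. The interaction uses the same 4 unexposed arrays as the exposure responses and as the comparison without RBC, so these results are not independent. Gadd45b and Egr1 passed whichever array was left out. The other calls leaned on single unexposed arrays. Without the second unexposed high-fat array Fosb and Junb did not pass (adjusted p = 0.107 and 0.0609), and without the first one Dusp1 did not (0.0685) while Ier3 did (0.042). Without the first unexposed chow array Dusp1, Fosb and Junb did not pass (0.0846, 0.0947 and 0.0786), and without the second one Fosb did not (0.111). Fosb also depended on 4 exposed arrays, which were replicate 2 in high-fat macrophages given high-fat RBC (0.0527), replicate 1 in those given chow RBC (0.0625), and replicate 2 in chow macrophages given high-fat RBC (0.0721) or chow RBC (0.0604).

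**Figure D1:**
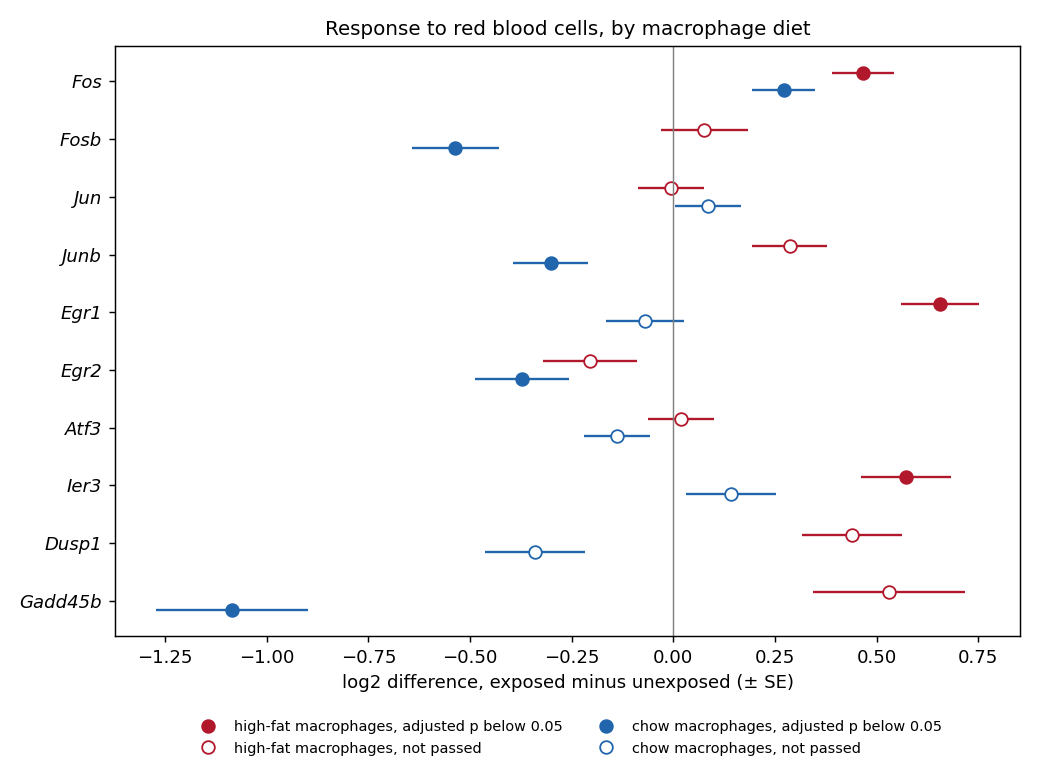
Log2 difference ± SE between RBC-exposed and unexposed macrophages (x axis) for each gene (y axis), in high-fat macrophages (red) and chow macrophages (blue); filled points had an adjusted p below 0.05. The 2 colours lie farthest apart for Gadd45b, at 0.53 in high-fat and -1.09 in chow macrophages, and close together for Jun.

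With both kinds of RBC pooled, high-fat and chow macrophages stood closer to each other for most of these genes. High-fat macrophages were still lower in Dusp1 (-0.62 ± 0.10) and Fos (-0.42 ± 0.06) and were higher in Egr1 (0.39 ± 0.08; adjusted p = 0.00198, 0.00102 and 0.00886), beside 2.65% of all genes lower, 2.20% higher and 4.85% in either direction. Gadd45b was at -0.27 ± 0.15, Ier3 at -0.27 ± 0.09, Junb at -0.20 ± 0.08 and Fosb at 0.00 ± 0.09, none of which passed. Taken singly, Dusp1 and Fos were lower with chow RBC (-0.75 and -0.56, adjusted p = 0.0117 and 0.00322). With high-fat RBC they were at -0.49 and -0.28 and did not pass (0.147 and 0.205). Egr1 was at 0.39 with either kind and passed with neither (0.0926 with chow and 0.139 with high-fat RBC).

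**Figure D2:**
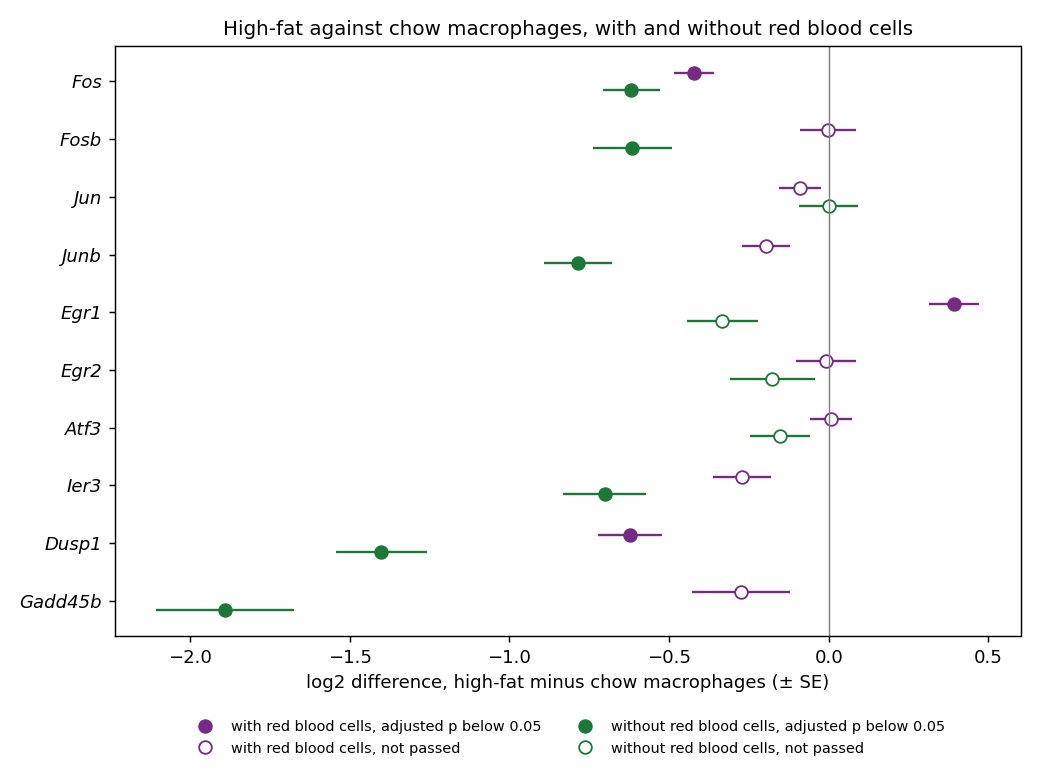
Log2 difference ± SE between high-fat and chow macrophages (x axis) for each gene (y axis), with both kinds of RBC pooled (purple) and without RBC (green). Filled points had an adjusted p below 0.05. For Gadd45b the difference was -0.27 with RBC and -1.89 without, and Egr1 is the 1 gene called above 0, with RBC.

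Among the AP-1 subunits, Fos, the partner that JUN proteins need for the most stable dimers, separated the donor diets on every array. Its levels were 7.94 and 7.96 in high-fat macrophages with high-fat RBC, 7.92 and 7.88 with chow RBC and 7.50 and 7.42 without RBC, against 8.25 and 8.22 in chow macrophages with high-fat RBC, 8.46 and 8.46 with chow RBC and 8.08 and 8.07 without RBC. All 6 high-fat macrophage arrays lay below all 6 chow macrophage arrays, and within each diet every exposed array lay above the unexposed ones. Between all neighbours in the order of the 6 group levels, no arrays overlapped. Over both kinds of RBC, Fos was 1.38-fold higher with RBC than without in high-fat macrophages and 1.21-fold higher in chow macrophages. Taken singly in chow macrophages, the rise was 0.38 ± 0.09 with chow RBC, which passed (adjusted p = 0.0144). With high-fat RBC it was 0.16 ± 0.09 and did not pass (adjusted p = 0.312).

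Fosb, whose product pairs with JUN proteins like that of Fos, had a different pattern. Its levels were 5.13 and 5.17 in high-fat macrophages with high-fat RBC, 5.19 and 5.08 with chow RBC and 5.22 and 4.91 without RBC, against 5.26 and 5.05 in chow macrophages with high-fat RBC, 5.25 and 5.02 with chow RBC and 5.69 and 5.67 without RBC. Unexposed chow macrophages alone stood above the rest, and the other 5 groups overlapped. The levels in those 5 groups were close to the array medians of all probe sets (4.84 to 4.96). Whether so low a signal limited the differences of Fosb was not tested.

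Junb, which encodes a JUN protein with weaker activation of many JUN targets, was highest in the same unexposed chow macrophages. It measured 7.19 and 7.35 in high-fat macrophages with high-fat RBC, 7.17 and 7.24 with chow RBC and 7.04 and 6.86 without RBC, against 7.45 and 7.33 in chow macrophages with high-fat RBC, 7.55 and 7.41 with chow RBC and 7.78 and 7.69 without RBC. Exposed arrays lay above the unexposed in high-fat macrophages and below the unexposed in chow macrophages, without overlap in either. The exposure response was 0.29 ± 0.09 in high-fat macrophages, which did not pass (adjusted p = 0.235), and -0.30 ± 0.09 in chow macrophages.

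Jun, the founding JUN subunit, and Atf3, a stress-induced member of the ATF family that can pair with JUN proteins, varied least. Jun ranged over 0.20 log2 units on the 12 arrays, between 9.10 and 9.30, and Atf3 over 0.24 units, between 11.25 and 11.49. Neither passed in any of the 6 main comparisons. Both unexposed chow macrophage arrays had the highest Atf3 levels, 11.41 and 11.49, and the other 5 groups overlapped. Fos, whose product is a partner of JUN in one dimer, ranged over 1.05 log2 units.

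Of the EGR zinc-finger factors, Egr1 rose with RBC in high-fat macrophages, and its response differed between the diets. Its levels were 6.86 and 7.01 in high-fat macrophages with high-fat RBC, 6.90 and 6.95 with chow RBC and 6.19 and 6.36 without RBC, against 6.51 and 6.58 in chow macrophages with high-fat RBC, 6.42 and 6.65 with chow RBC and 6.68 and 6.54 without RBC. The 4 exposed high-fat arrays were the highest of the 12 and the 2 unexposed high-fat arrays the lowest, with all 6 chow arrays between them. The rise in high-fat macrophages was 0.66 ± 0.11 with high-fat RBC and 0.65 ± 0.11 with chow RBC (1.58-fold over both), and passed in each, where 0.752% and 0.647% of all genes passed. In chow macrophages the differences were -0.06 ± 0.11 and -0.07 ± 0.11, which did not pass.

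Egr2, known in macrophages for its part in differentiation and alternative activation, measured 10.17 and 10.44 in high-fat macrophages with high-fat RBC, 10.44 and 10.37 with chow RBC and 10.35 and 10.78 without RBC, against 10.34 and 10.42 in chow macrophages with high-fat RBC, 10.38 and 10.32 with chow RBC and 10.70 and 10.78 without RBC. Both unexposed chow arrays and replicate 2 of the unexposed high-fat macrophages stood above the other 9 arrays. The 2 unexposed high-fat arrays differed by 0.43, more than the 2 arrays of any other group, and the neighbouring groups in the order of levels all overlapped.

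**Figure D3:**
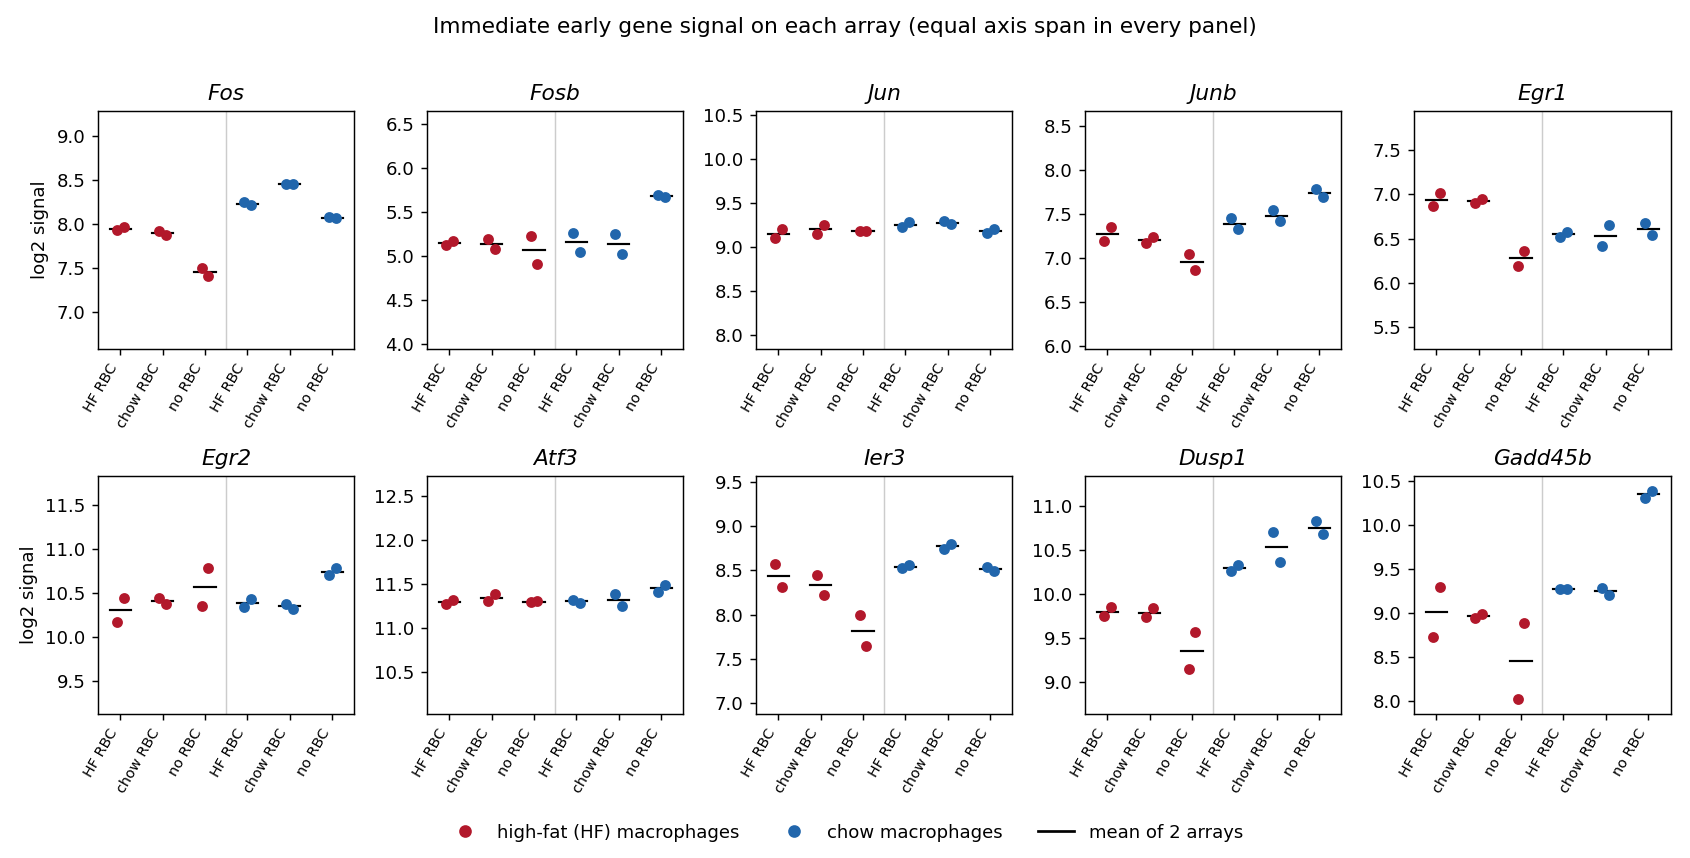
Log2 signal (y axis) of each gene on each array, 1 point an array, with the mean of the 2 arrays of a group as a line. High-fat (HF) macrophages are red and chow macrophages blue, and each is ordered from high-fat RBC to chow RBC to no RBC; all panels span the same number of log2 units. Gadd45b ranges from 8.02 to 10.38, and Jun stays between 9.10 and 9.30.

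The genes that restrain signalling or death spread most. Dusp1, the dual-specificity phosphatase that inactivates p38 and JNK, measured 9.75 and 9.85 in high-fat macrophages with high-fat RBC, 9.73 and 9.83 with chow RBC and 9.14 and 9.56 without RBC, against 10.26 and 10.33 in chow macrophages with high-fat RBC, 10.70 and 10.36 with chow RBC and 10.83 and 10.67 without RBC. All high-fat macrophage arrays lay below all chow macrophage arrays. Without RBC the gap was 2.64-fold (adjusted p = 9.9e-06), and over both kinds of RBC it was 1.54-fold. The exposure response was 0.44 ± 0.12 in high-fat macrophages and -0.34 ± 0.12 in chow macrophages, and neither passed (adjusted p = 0.148 and 0.0863), although the difference between them did. In high-fat macrophages it was 0.65 and passed without the second unexposed array (adjusted p = 0.0231), and it was 0.23 without the first. In chow macrophages it passed without replicate 1 with chow RBC (0.048) or without either unexposed high-fat array (0.0397 each), and also after quantile normalization (0.0427), with an intensity trend (0.0389) and with array weights (0.0432). The intensity trend also brought the high-fat response past the threshold (0.0425).

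Gadd45b, a stress-induced protein that binds MAP kinase kinases and in macrophages is a target of NF-kB, had the widest range, 2.36 log2 units. It measured 8.73 and 9.29 in high-fat macrophages with high-fat RBC, 8.94 and 8.98 with chow RBC and 8.02 and 8.88 without RBC, against 9.27 and 9.27 in chow macrophages with high-fat RBC, 9.29 and 9.20 with chow RBC and 10.31 and 10.38 without RBC. Both unexposed chow arrays stood about 1 unit above every other array. High-fat macrophages were 3.71-fold lower than chow macrophages without RBC (adjusted p = 3.07e-05), and in chow macrophages the level was 2.12-fold lower with RBC than without. The unexposed high-fat arrays differed by 0.86, and the exposure response in that diet rested on them: 0.53 ± 0.19 over both (adjusted p = 0.3), 0.10 without replicate 1 and 0.96 without replicate 2, where it passed (adjusted p = 0.00953).

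Ier3, an inhibitor of apoptosis and modulator of ERK signalling, behaved more like Fos. It measured 8.57 and 8.31 in high-fat macrophages with high-fat RBC, 8.45 and 8.22 with chow RBC and 7.99 and 7.64 without RBC, against 8.53 and 8.56 in chow macrophages with high-fat RBC, 8.75 and 8.80 with chow RBC and 8.54 and 8.50 without RBC. The unexposed high-fat arrays lay below all others, and in chow macrophages the 2 arrays with chow RBC lay above the rest. Over the 12 arrays Ier3 and Fos had a Pearson r of 0.933, Dusp1 and Junb 0.908, Dusp1 and Gadd45b 0.869, Junb and Gadd45b 0.85 and Egr1 and Dusp1 0.023. These values describe 12 arrays that share their donor diets and RBC groups.

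Whether RBC of high-fat-fed mice acted differently from RBC of chow-fed mice was asked over both kinds of macrophage. No member passed, and limma gave 0 of 10 an unadjusted p under 0.05; of all genes 0.0100% passed, and 629 had such an unadjusted p. The differences ran between -0.11 (Dusp1) and 0.04 (Gadd45b), and the 95% intervals of all 10 lay between -0.33 (Dusp1) and 0.37 (Gadd45b). The data therefore leave room for differences of up to that size in the average over both kinds of macrophage. Within chow macrophages the lowest differences were those of Fos (-0.23 ± 0.09), Ier3 (-0.23 ± 0.13) and Dusp1 (-0.24 ± 0.14). None passed, and by limma 0 of all genes did. An unadjusted limma p under 0.05 was given to 1 of the 10 (Fos, 0.0235) and to 555 of all genes. The 95% intervals of the 10 in chow macrophages reached -0.54 (Dusp1) and 0.49 (Gadd45b). Within high-fat macrophages the differences of Fos, Ier3 and Dusp1 were 0.05, 0.10 and 0.01, and none passed, where 0.0251% of all genes did.

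The wider set of early-response genes was described from 5 lists with 77 measured genes. Without RBC 24 of the 77 were lower and 4 higher in high-fat than in chow macrophages, and 49 did not pass, beside 5.82% of all genes lower and 8.12% higher, so the number higher is not above the background. The largest share was in the EGR, NR4A and KLF list, where 8 of 15 fell, among them Csrnp1 (-1.25 ± 0.14), Ier2 (-0.81 ± 0.10) and the orphan nuclear receptor genes Nr4a1 (-0.78 ± 0.13) and Nr4a3 (-0.71 ± 0.11). Nr4a3 had a low signal, at 3.56 and 3.54 in unexposed high-fat and 4.35 and 4.16 in unexposed chow macrophages. These levels lay below the array medians of all probe sets (4.84 to 4.96). Nr4a1 was at 5.04 and 4.80 in unexposed high-fat macrophages, close to those medians, and at 5.61 and 5.79 in unexposed chow macrophages. In the AP-1 list 5 of 12 family and partner genes fell, with the small MAF gene Mafk at -0.64 ± 0.10 and Fosl1, a FOS-related subunit, at -0.58 ± 0.12. Of 21 feedback genes 6 fell and 3 rose: Btg1, an antiproliferative factor, was at -1.06 ± 0.10, the ERK phosphatase gene Dusp4 at -0.92 ± 0.13 and Zfp36, which destabilizes AU-rich mRNA, at -0.78 ± 0.12. In the GADD45 list 3 of 11 fell and 1 rose, with the pseudokinase gene Trib1 at -1.08 ± 0.14 and Phlda1 at 0.47 ± 0.12. Of 18 upstream factors 2 fell, and the p38 substrate kinase gene Mapkapk2 was at -0.95 ± 0.12.

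With RBC, 4 of these 77 genes were higher and 1 was lower in high-fat macrophages, beside 0.878% of all genes higher and 0.201% lower. Nr4a1 rose by 0.78 ± 0.12, Plk3 by 0.57 ± 0.12, Zfp36 by 0.47 ± 0.10 and Ier2 by 0.46 ± 0.08, and Rgs1 fell by 0.42 ± 0.09. In chow macrophages 16 were lower and 9 higher, beside 4.51% of all genes lower and 8.22% higher, and the number higher is near that background. Lower were Mapkapk2 at -0.85 ± 0.10, Csrnp1 at -0.82 ± 0.12, the eIF2 phosphatase subunit gene Ppp1r15a at -0.78 ± 0.13 and the ERK inhibitor gene Spred1 at -0.74 ± 0.09. Among the genes higher with RBC in chow macrophages were Rgs2 (0.66 ± 0.09), the ERK phosphatase gene Dusp6 (0.57 ± 0.09) and Nr4a1 (0.46 ± 0.12). The interaction was positive for 12 and negative for 2 of the 77, beside 2.57% of all genes above 0 and 3.10% below, so the number negative is at the background. It was at 1.07 ± 0.17 for Csrnp1, 1.00 ± 0.14 for Mapkapk2, 0.80 ± 0.12 for Mafk and 0.77 ± 0.15 for Fosl1, and at -0.96 ± 0.12 for Rgs2. The medians of the 5 lists in the interaction were between 0.070 (upstream factors) and 0.229 (AP-1 family and partners), against 0.509 for the 10 genes and 0.016 for all genes. The other members of the GADD45 family, Gadd45a and Gadd45g, did not pass (0.32 and -0.03); they were picked after their values were seen.

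**Figure D4:**
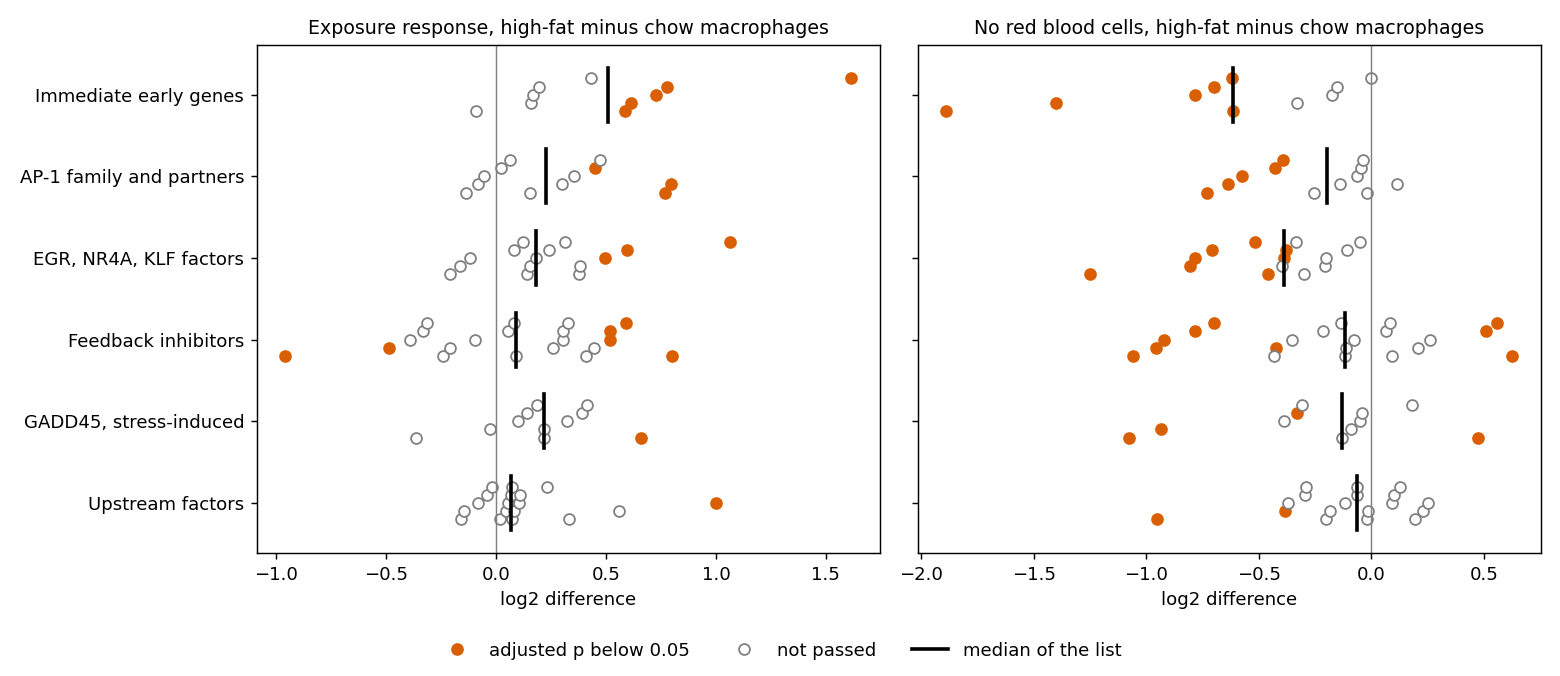
Log2 difference (x axis) of each gene of the immediate early set and of the 5 wider lists (y axis), for the interaction of RBC exposure with macrophage diet (left) and for high-fat minus chow macrophages without RBC (right); filled points had an adjusted p below 0.05 and black lines are list medians. The medians of the 10 genes are 0.509 on the left and -0.616 on the right, farther from 0 than those of the other lists.

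By Pearson r over the 12 arrays, the genes of the whole table most like Gadd45b were St3gal1 (0.99), Ptprj (0.986) and Zeb2 (0.983), and those most like Dusp1 were Ifi209 (0.983), Slc7a8 (0.978) and Tor1aip2 (0.974). Fos was most like S1pr1 (0.974), Vegfa (0.959) and Nr4a1 (0.955), Junb like Nampt (0.972), Dck (0.966) and Ifit3 (0.962), and Ier3 like Cd14 and Nr4a1 (0.948 each). For Egr1 the closest was Lrp10 (0.913), for Egr2 Litaf (0.962), for Fosb Wwc1 (0.937), for Atf3 Psmd7 (0.919) and for Jun Myoz2 (0.864).

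Markers of macrophages and of other cells moved with the same groups. The linear signals of the 10 macrophage markers were summed on each array, so the brightest, Lyz2 and Cd68, weigh most. The log2 of that sum was 13.81 to 13.91 in unexposed high-fat macrophages, against 14.06 to 14.07 in unexposed chow macrophages. Of the 10 markers, Fcgr1 (-1.81), Cd14 (-1.82), Adgre1 (-1.17) and Csf1r (-0.81) were lower in the high-fat cells. Mrc1 and Mertk were higher, and the other 4, which were Cd68, Itgam, Lyz2 and Msr1, did not pass. In the same comparison 8 of 11 B cell markers (1 was higher), 5 of 14 neutrophil markers and 2 of 8 platelet markers were lower, with Cd79a at -2.19, Lcn2 at -1.61 and Pf4 at -1.30, and 1 of 9 erythroid markers was lower and 1 higher, beside 5.82% of all genes lower and 8.12% higher. Between the diets with both kinds of RBC pooled, 3 of 10 macrophage markers (Fcgr1, Cd14 and Adgre1) were lower. So were 4 of 11 B cell markers (1 was higher), 2 of 14 neutrophil, 1 of 8 platelet and 1 of 9 erythroid markers. Of all genes 2.65% were lower and 2.20% higher between the diets with RBC. The same kind of sum was taken for the 14 neutrophil markers, of which S100a8 and S100a9 were the brightest with RBC and weigh most. In high-fat macrophages its log2 was 12.20 to 12.26 with high-fat RBC, 11.52 to 11.65 with chow RBC and 10.64 to 10.83 without. In chow macrophages it was 11.84 to 11.96 with high-fat RBC, 11.71 to 11.91 with chow RBC and 10.92 to 11.04 without. Of those 14, 6 were higher with RBC in high-fat macrophages and 8 did not pass. In chow macrophages 5 were higher with RBC, 1 was lower and 8 did not pass. S100a9 was higher by 6.28 in high-fat and by 5.24 in chow macrophages, while Ly6g was at 0.18 and -0.13 and Mpo at 0.14 and -0.19, which did not pass and were picked after their values were seen. Of the 8 platelet markers 5 were higher in high-fat and 4 in chow macrophages, with Ppbp higher by 5.06 and 3.82, and of the 9 erythroid markers 1 and 2 were higher. In chow macrophages 5 of 11 B cell markers were lower with RBC (Ms4a1 at -0.91). Of the 10 macrophage markers, Cd14 and Fcgr1 were higher with RBC in high-fat macrophages, and 8 did not pass. In chow macrophages Mertk and Mrc1 were higher with RBC, Adgre1 and Csf1r were lower, and 6 did not pass. Of all genes 0.878% were higher and 0.201% lower with RBC in high-fat macrophages, and 8.22% higher and 4.51% lower in chow macrophages. No detection calls were analysed, so which markers were absent is not known. The part that these cells have in the immediate early gene results was not tested.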

How the data were processed

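Per the labels' protocols, RNeasy was used for RNA, WTA-Ovation FFPE V2 for amplification and Encore for the biotin label. The authors deposited log2 signals per probe set; the scale was read from the values, and their summarization and normalization are not given in the sources used here. Medians of the 12 arrays lay between 4.84 and 4.96. Of 35557 probe sets 35556 had values, and 21789 had 1 gene symbol; where a gene had more than 1, that of highest mean signal was kept, which left 19938 genes, with no filter on low values. One mean per group was fitted with limma 3.58.1 in R 4.3.3 (residual df 6, prior df 7.69), tested on simulated data. Errors are SE from limma, intervals cover 95%. The genes and the lists were chosen with earlier results of these data known. List genes are named by smallest p among those called (up to 4 a list and comparison), and the genes most like each gene by Pearson r over the arrays (up to 3). Alternatives were another threshold, a 1.5-fold minimum, quantile normalization, removal of the lowest 33.3% of genes, an intensity trend, array weights, the animal number as a replicate block, the mean of probe sets, fits to the compared groups and omission of each array. Deviations of arrays with the same animal number from their group means had correlations of -0.226 to 0.344 between groups. The highest was between high-fat macrophages with high-fat RBC and those without RBC. Whether groups shared an animal is not known, and the numbers were used as a block only among the alternatives.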

Additional observations from a re-analysis of the deposited data

Results flagged for a closer look

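The responses to RBC of 5 genes are given again because the interaction test found that they differed between high-fat and chow macrophages. The difference (high-fat minus chow response) was 1.62 for Gadd45b (adjusted p = 0.00212), 0.78 for Dusp1 (0.0167), 0.73 for Egr1 (0.00566), 0.61 for Fosb (0.0291) and 0.59 for Junb (0.0167). For all 5 the fitted response was above 0 in high-fat and below 0 in chow macrophages, at 0.53 and -1.09 for Gadd45b, 0.44 and -0.34 for Dusp1, 0.66 and -0.07 for Egr1, 0.08 and -0.54 for Fosb and 0.29 and -0.30 for Junb. Of these responses, those of Egr1 in high-fat macrophages and of Gadd45b, Fosb and Junb in chow macrophages passed on their own.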

How the results depend on the processing

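The 22 calls of a gene in a comparison kept their sign under all alternatives, and 10 of them were also called under all. With a 1.5-fold minimum the members called were 1 for RBC in high-fat macrophages, 1 for RBC in chow macrophages and 1 for high-fat against chow macrophages with RBC. Fitted to the high-fat macrophage arrays alone, 1 was called for RBC. With 1 array left out the count ran from 1 to 6 for RBC in chow macrophages and from 2 to 5 for the interaction. Changes of sign were seen in values that had not passed. Those values were near 0, except for some of Egr2. In the main fit these were -0.21 ± 0.12 for RBC in high-fat macrophages, -0.18 ± 0.13 for the diets without RBC and 0.17 ± 0.16 for the interaction. After quantile normalization Atf3 was at -0.0053 for RBC in high-fat macrophages and -0.0056 for the macrophage diets with RBC, and Jun at 0.0878 for the diets without RBC. With 1 array left out, the response to RBC in high-fat macrophages ran from -0.0799 to 0.233 for Fosb, -0.0311 to 0.02 for Jun, -0.4196 to 0.0084 for Egr2 and -0.0009 to 0.0405 for Atf3, and that of Egr1 in chow macrophages from -0.1398 to 0.0024. The interaction of Egr2 ran from -0.0469 to 0.3811. High-fat minus chow macrophages without RBC ran from -0.0263 to 0.0256 for Jun and -0.3905 to 0.0376 for Egr2, and with RBC from -0.0598 to 0.0572 for Fosb, -0.0784 to 0.0596 for Egr2 and -0.0262 to 0.0406 for Atf3. With the animal number as a replicate block, over all groups 4 members were called for RBC in chow macrophages (Junb at adjusted p = 0.0544), and within macrophage diet 6 for the interaction (Ier3 at 0.0478) and 2 for the diets with RBC (Egr1 at 0.0828), where Atf3 was at -0.026; the block changed no other call. No signal over background was available. The causes were not tested.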
